A study of Mus musculus with 12 samples.

Results

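The interleukin 12 family and interleukin 15 were followed through the genes Il12a, Il12b, Il23a, Il27, Ebi3, Il15 and Il15ra in BV-2, a mouse cell line derived from microglia, which are the macrophages of brain tissue. These 7 genes are the members, taken by name. A probe was assigned to a member where its RefSeq accession maps to that symbol. By this rule 6 of the 7 genes had a probe, among 17305 gene symbols with a probe in the series, and 5 of them gave enough signal to be tested, out of 19319 genes and transcripts tested. Il12b was not analysed here, because no accession of a probe was paired with that symbol in the annotation used. Il12a had a probe that stayed at background on all 12 arrays.

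Cells received both agents together (LPS+curcumin), 100 ng/ml lipopolysaccharide alone (LPS, an endotoxin of Gram-negative bacteria that is sensed through Toll-like receptor 4), 20 µM curcumin alone (a polyphenol of turmeric), or neither (untreated), with 3 arrays in each group. The treatments lasted 6 h. The labels give no time and no vehicle for the untreated cells and do not say whether replicates came from separate cultures, so p-values measure only the spread between these arrays, which may be technical. BV-2 is a single established line, and all 4 groups share it.

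Cytokines of the interleukin 12 family are pairs of an alpha chain and a beta chain. Il12a encodes the p35 chain and Il12b the p40 chain of IL-12, which drives type 1 T cell responses. Il23a encodes the p19 chain that pairs with p40 to form IL-23, a cytokine that sustains T cells producing IL-17. Il27 encodes the p28 chain, which pairs with the product of Ebi3 to form IL-27, a regulator of T cell responses, and Ebi3 can also pair with p35 to form IL-35. Interleukin 15 supports natural killer cells and memory CD8 T cells, and myeloid cells present it to them bound to its alpha receptor chain, the product of Il15ra. All of these genes can be induced in macrophages and dendritic cells by Toll-like receptor ligands or interferons.

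Of the 12 members of a microglia and macrophage marker list, 11 were on the array and 9 of them, among them Aif1, Itgam and Csf1r, were well above background on every array. The natural killer markers Ncr1, Klrb1c and Klrk1 were above background on none, and the astrocyte markers Gfap, Aqp4 and Aldh1l1 were above background on none either. Of the dendritic cell markers, Itgax was well above background on all 12 arrays and Cd209a on none. The summed scaled level of the dendritic list was 203.4 to 778 in LPS+curcumin cells, 271 to 388 in LPS cells, 353 to 624 in curcumin cells and 263 to 451 in untreated cells, and its part in the results was not tested. The share of spots well above background was 58.0% on the array with the fewest and 65.9% on the array with the most. LPS+curcumin replicate 2 had 1594 outlier spots, which were dropped, against 87 to 163 on the other arrays. None of those spots was on a probe of a member. Another array stood apart from its group in its correlations. The log2 signals of LPS+curcumin replicate 1 correlated on average at 0.988 with LPS arrays, 0.973 with curcumin arrays and 0.967 with the other arrays of its own group. For LPS+curcumin replicate 3 the same averages were 0.959 with LPS arrays, 0.988 with curcumin arrays and 0.972 with its own group. Results that rest on replicate 1 are therefore given with and without it.

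Promoter sequences are shown for Ebi3, which was called in 3 of the 6 comparisons, and for the second start of Il15ra, whose window holds more than one kind of motif. They are RefSeq sequences of build GRCm38.p6, from 250 bases before to 50 bases after a transcription start. Sequences were given for 4 of the 7 members and for neither Il23a, Il27 nor Il15. Capitals mark matches, on either strand, to the NF-kB motif (GGG and CC with any 5 bases between them), the AP-1 motif TGANTCA and the C/EBP motif TTNNGNAA.
Ebi3, chr17:55952373-55952672, plus strand: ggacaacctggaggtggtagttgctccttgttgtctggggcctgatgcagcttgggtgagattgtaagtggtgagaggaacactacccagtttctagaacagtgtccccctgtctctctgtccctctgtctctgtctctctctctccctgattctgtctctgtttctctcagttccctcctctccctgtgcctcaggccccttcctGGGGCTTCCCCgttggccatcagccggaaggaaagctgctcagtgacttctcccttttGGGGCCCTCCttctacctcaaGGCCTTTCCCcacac
Il15ra (second start), chr2:11705462-11705761, plus strand: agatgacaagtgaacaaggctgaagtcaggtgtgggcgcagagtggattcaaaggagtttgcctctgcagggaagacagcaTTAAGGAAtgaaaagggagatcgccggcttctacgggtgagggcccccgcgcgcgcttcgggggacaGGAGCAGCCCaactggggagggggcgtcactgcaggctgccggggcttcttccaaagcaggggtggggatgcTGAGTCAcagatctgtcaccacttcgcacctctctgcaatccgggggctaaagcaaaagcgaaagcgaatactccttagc

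The Ebi3 window held 4 matches to the NF-kB motif, of which a pair overlap. They begin 44 and 43 bases before the start and 15 and 36 bases after it. The window of the second Il15ra start held 1 match each to the NF-kB, AP-1 and C/EBP motifs, and its AP-1 match runs from 30 to 24 bases before the start. Of the windows not printed, those of the first Il15ra start, the first Il12a start and Il12b held no match to any motif searched. That of the second Il12a start held 3 matches to the NF-kB motif, and Il12a stayed at background. Among 32851 promoter windows of the same length, 50.8% hold the NF-kB letters, 40.7% the C/EBP letters and 7.81% the AP-1 letters. The interferon response core (GAAA repeated after any 2 bases), held by 3.44% of all windows, was not found in either printed window.

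Signals are given as scaled signal, the processed intensity of a probe as a percent of the 75th percentile of its own array, so that a scaled signal can be compared between arrays for 1 probe but not between probes. Log2 fold changes come from a limma fit over all 12 arrays and all genes tested, with Benjamini-Hochberg adjusted p-values and a call at an adjusted p below 0.05. The groups of arrays are named by treatment and replicate, and replicates of the same number share a slide.

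LPS alone raised both chains of IL-27, and the combination lowered Ebi3, Il27 and Il15 and raised Il23a relative to LPS alone. Il23a was also called higher with curcumin alone, from an untreated level below background, a call lost on quantile normalization. How each call depends on single arrays and on the scaling is given below. With LPS versus untreated cells, 2 of the 5 tested members rose and none fell, where 5.73% of all genes tested were called, 4.12% higher and 1.61% lower. With curcumin versus untreated cells, 1 member rose and none fell, where 29.2% of all genes were called, 21.9% higher and 7.28% lower. With LPS+curcumin versus LPS cells, 1 rose and 3 fell, where 18.7% of all genes were called, 12.7% higher and 5.99% lower. With LPS+curcumin versus curcumin cells no member was called (limma), and none reached an unadjusted p below 0.05, where 0.212% of all genes were called, 0.202% higher and 0.0104% lower. The comparison of LPS+curcumin with untreated cells, added after the data had been seen, called 1 member higher, where 24.5% of all genes were called, 18.2% higher and 6.26% lower. The median log2 fold change of the tested members was 1.93 for LPS, 0.52 for curcumin and -1.64 for LPS+curcumin versus LPS, against 0.01, 0.41 and 0.32 over all genes tested.

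**Figure D1:**
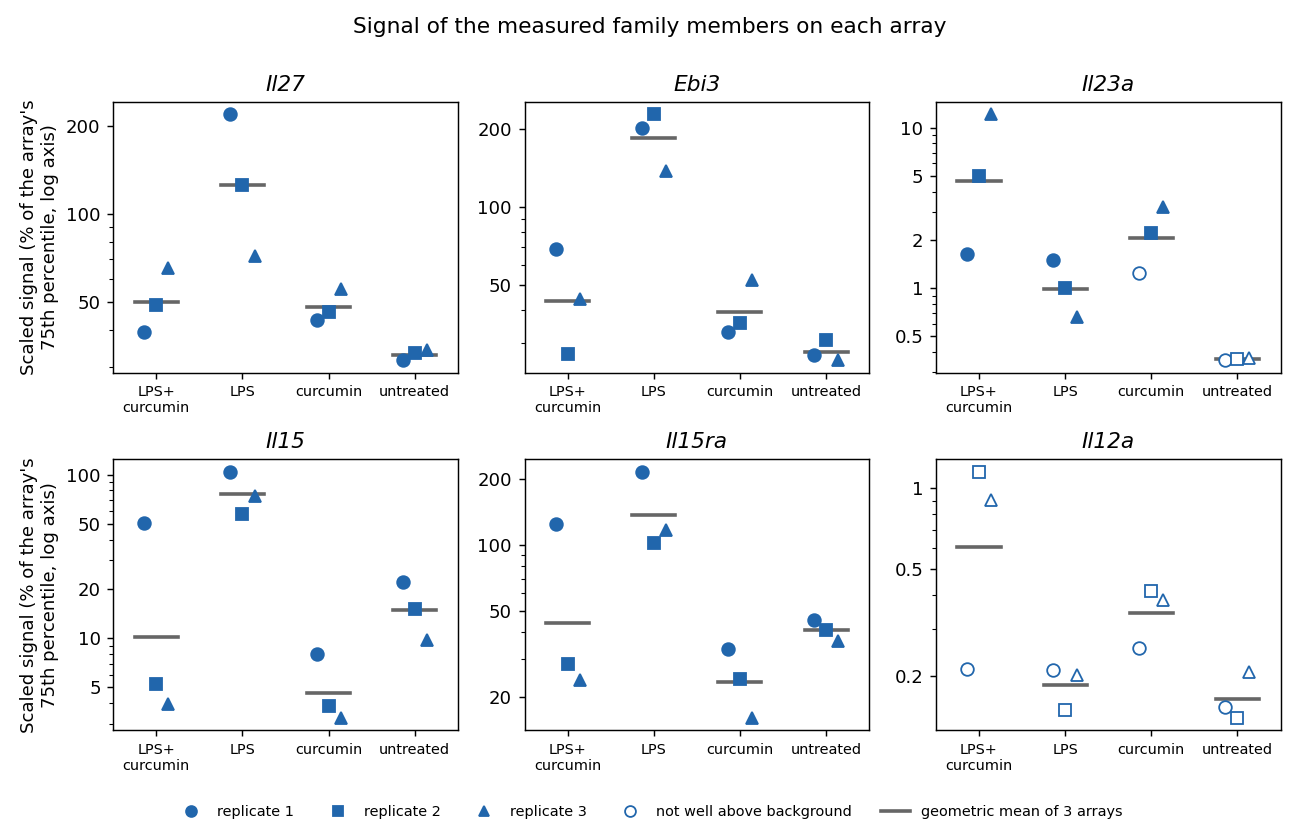
Scaled signal of the 6 members with a probe on each of the 12 arrays (log axis, percent of the array's 75th percentile), by treatment group; filled symbols are well above background, open symbols are not, and grey lines are geometric means of 3 arrays. Ebi3 and Il27 are higher on all 3 LPS arrays than on any other array, Il12a is open throughout, and LPS+curcumin replicate 1 (circle) lies apart from replicates 2 and 3 for Il15 and Il15ra.

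Ebi3, the beta chain of IL-27, rose with LPS and was lower when curcumin was added to LPS. Its scaled signal was 69.0, 27.1 and 44.4 in LPS+curcumin cells, 203, 229.6 and 138 in LPS cells, 33.1, 35.7 and 52.4 in curcumin cells and 26.9, 30.6 and 25.7 in untreated cells (replicates 1, 2 and 3). All 3 LPS arrays lay above the other 9, which lay between 25.7 and 69.0. LPS raised Ebi3 6.72-fold over untreated cells (log2 2.75 ± 0.33 SE, 3 arrays per group, limma adjusted p = 0.000484), with differences of 2.91, 2.91 and 2.43 on the 3 slides. In LPS+curcumin cells Ebi3 was 4.26-fold lower than in LPS cells (log2 -2.09 ± 0.33, limma adjusted p = 0.00335), by -1.55, -3.08 and -1.63 on the slides. Both calls held without each of the 12 arrays in turn, with adjusted p up to 0.00413 and 0.019.

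Curcumin without LPS left Ebi3 at 0.52 ± 0.33 on the log2 scale relative to untreated cells (limma adjusted p = 0.23, 95% interval -0.22 to 1.25). The change with curcumin in LPS-treated cells thus differed from the change in cells without LPS by -2.61 ± 0.47 (limma adjusted p = 0.0325 for the interaction), and by -1.86, -3.30 and -2.66 on the 3 slides. Ebi3 was the only member called in the interaction, in which 0.73% of all genes were called, 0.709% lower and 0.0207% higher. That call was lost without any 1 of the 3 untreated, 3 curcumin or first 2 LPS arrays (adjusted p from 0.0642 to 0.116), and held without LPS replicate 3 or any 1 LPS+curcumin array. It was also lost on the quantile, median and spike-in scalings (adjusted p = 0.122, 0.243 and 0.477), although the difference stayed between -2.62 and -2.22.

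Il27, the alpha chain p28, had a scaled signal of 39.4, 48.8 and 65.2 in LPS+curcumin cells, 219.7, 126 and 71.9 in LPS cells, 43.5, 46.3 and 55.2 in curcumin cells and 31.6, 33.5 and 34.2 in untreated cells. The LPS arrays were again the 3 highest of the 12, but they spread over a wider range than those of any other group. LPS raised Il27 by 1.93 ± 0.35 on the log2 scale, or 3.80-fold, over untreated cells (limma adjusted p = 0.00643), and the call held without each array in turn. The differences on the 3 slides were 2.80, 1.91 and 1.07.

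In LPS+curcumin cells Il27 was 2.51-fold lower than in LPS cells (log2 -1.33 ± 0.35, limma adjusted p = 0.0256). The slides gave -2.48, -1.37 and -0.14, so that almost no difference was seen on slide 3. The call was lost without LPS replicate 1, LPS replicate 2 or LPS+curcumin replicate 2 (adjusted p = 0.0759, 0.0779 and 0.0889). Curcumin alone gave 0.54 ± 0.35 over untreated cells (limma adjusted p = 0.228). The interaction was -1.87 ± 0.49 and missed the threshold (limma adjusted p = 0.172), and it passed without LPS replicate 3 (-2.27, adjusted p = 0.0316).

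The difference between the Ebi3 and Il27 profiles, as the root mean square of centred log2 values over the 12 arrays, was 0.57. That was the smallest of the 10 pairs of tested members, followed by Il15 with Il15ra at 0.69, while Il23a with Il15 had the largest at 2.81. These distances describe the arrays and were not tested.

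**Figure D2:**
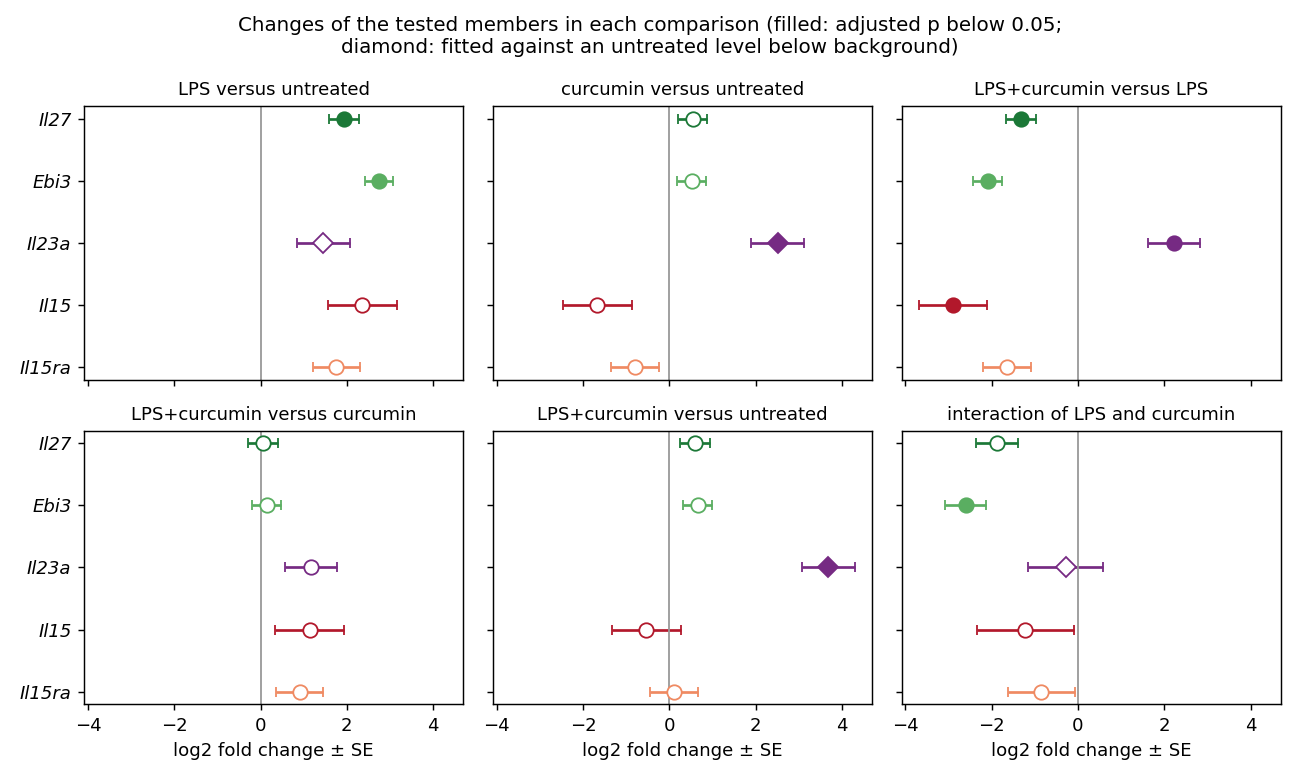
Log2 fold change with its standard error for the 5 tested members in each of 6 comparisons (x axis); filled symbols have an adjusted p below 0.05. Ebi3 and Il27 lie at 2.75 and 1.93 with LPS versus untreated cells and below 0 with LPS+curcumin versus LPS cells, whereas Il23a lies above 0 in both. Diamonds mark fitted values of Il23a that rest on an untreated level below background, for which only the bounds in the text hold (at least 3.48-fold with curcumin alone).

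Il23a, the p19 chain of IL-23, moved the other way from the IL-27 chains when curcumin was added to LPS. Its scaled signal was 1.64, 5.02 and 12.2 in LPS+curcumin cells, 1.50, 0.996 and 0.658 in LPS cells, 1.24, 2.20 and 3.22 in curcumin cells and 0.356, 0.364 and 0.367 in untreated cells. These are dim spots, with processed intensities of 12.6, 28.5 and 37.1 in LPS+curcumin cells and 3.26, 3.56 and 3.47 in untreated cells. The probe was well above background on all LPS+curcumin and LPS arrays, on curcumin replicates 2 and 3, and on no untreated array.

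Because the untreated level is below background, only bounds can be given against it. A bound sets the mean of the brighter group against, on each untreated array, the lowest signal that was well above background. Il23a was at least 7.82-fold higher in LPS+curcumin cells than in untreated cells. The p-values given here test the fitted change against untreated values below background, and do not test the bound. The fitted change with LPS+curcumin was called (limma adjusted p = 0.00338). That call held without each array in turn, and the bound was 13.2-fold without LPS+curcumin replicate 1 and 4.83-fold without LPS+curcumin replicate 3. The bound was 3.48-fold for curcumin cells over untreated cells, with 2 of the 3 curcumin arrays well above background. Its mean includes curcumin replicate 1, which was not well above background. The fitted change with curcumin was called (limma adjusted p = 0.0137). That call was lost without curcumin replicate 3 (adjusted p = 0.0596) and on quantile normalization (adjusted p = 0.0994), and the bound was 2.79-fold without replicate 3 and 4.49-fold without replicate 1. The fold in LPS cells over untreated cells was at least 1.67, and the test missed the threshold (limma adjusted p = 0.268), although the arrays of the groups did not overlap.

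LPS+curcumin cells had 4.68-fold more Il23a signal than LPS cells (log2 2.23 ± 0.61, limma adjusted p = 0.0315). The difference was 0.13 on slide 1, 2.33 on slide 2 and 4.21 on slide 3, so the replicate that stood with the LPS arrays over all probes also differed least here. The log2 fold change was 2.98 without LPS+curcumin replicate 1 and 1.53 without LPS+curcumin replicate 3. The call was lost without any 1 of LPS replicates 1, 2 and 3 or LPS+curcumin replicates 2 and 3 (adjusted p from 0.0525 to 0.105), and on quantile and median scaling (adjusted p = 0.0964 and 0.0515). Relative to curcumin cells the change was 1.17 ± 0.61 (limma adjusted p = 0.869), and the groups overlapped.

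Il12a, the p35 chain shared by IL-12 and IL-35, did not reach the level called well above background on a single array. Its processed intensity was 1.64, 6.57 and 2.75 in LPS+curcumin cells, 1.45, 1.20 and 1.72 in LPS cells, 1.47, 2.55 and 1.82 in curcumin cells and 1.41, 1.37 and 1.96 in untreated cells. The lowest intensity that counted as well above background on any array was 4.51, and Il12a exceeded its own array's limit once, on LPS+curcumin replicate 2, where the spot was still not well above background. No fold change is given for it.

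Il15 encodes the cytokine that myeloid cells present to natural killer and T cells. Its scaled signal was 50.8, 5.26 and 3.99 in LPS+curcumin cells, 104, 57.3 and 73.4 in LPS cells, 8.01, 3.86 and 3.26 in curcumin cells and 22.0, 15.0 and 9.79 in untreated cells. The 3 LPS arrays were the highest, the curcumin arrays lay below all untreated arrays, and LPS+curcumin replicate 1 lay between the LPS and untreated arrays while replicates 2 and 3 lay with the curcumin arrays. Il15 was 7.44-fold lower in LPS+curcumin cells than in LPS cells (log2 -2.90 ± 0.80, limma adjusted p = 0.0311), by -1.04, -3.45 and -4.20 on the 3 slides. The log2 fold change was -4.05 without LPS+curcumin replicate 1 (adjusted p = 3.25e-05) and -2.22 without LPS+curcumin replicate 3 (adjusted p = 0.104). The call was lost without any 1 of LPS replicates 1, 2 and 3 or LPS+curcumin replicates 2 and 3 (adjusted p from 0.0726 to 0.128).

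The response of Il15 to LPS alone was 2.36 ± 0.80 on the log2 scale against untreated cells and was not called (limma adjusted p = 0.139), although the 3 slides gave 2.24, 1.93 and 2.91. With slide as a block in the fit it passed (adjusted p = 0.0287), and likewise without LPS+curcumin replicate 1 (adjusted p = 0.0025), which enters this comparison only through the shared estimate of spread. Curcumin alone gave -1.67 ± 0.80 against untreated cells (limma adjusted p = 0.12), with -1.46, -1.96 and -1.59 on the slides. That difference too passed with slide as a block (adjusted p = 0.036) and without LPS+curcumin replicate 1 (adjusted p = 0.00588). LPS+curcumin cells differed from untreated cells by -0.53 (limma adjusted p = 0.626), and by -1.69 without replicate 1 (adjusted p = 0.00783).

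Il15ra, the chain that presents interleukin 15, was measured by a pair of probes, of which the brighter stands for the gene. Its scaled signal was 124, 28.5 and 24.1 in LPS+curcumin cells, 218, 102 and 117 in LPS cells, 33.2, 24.2 and 16.1 in curcumin cells and 45.1, 40.9 and 36.4 in untreated cells. LPS+curcumin replicate 1 overlapped the LPS arrays, and replicates 2 and 3 lay below all of them. The change in LPS+curcumin relative to LPS cells was -1.64 ± 0.55 and was not called (limma adjusted p = 0.0592), with -0.81, -1.84 and -2.28 on the 3 slides. It passed with slide as a block (adjusted p = 0.0147) and without LPS+curcumin replicate 1 (-2.39, adjusted p = 0.000324).

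For Il15ra the LPS response over untreated cells was 1.76 ± 0.55 (limma adjusted p = 0.105), with 2.27, 1.32 and 1.68 on the slides, and it passed with slide as a block (adjusted p = 0.0208) and without LPS+curcumin replicate 1 (adjusted p = 0.00467). Curcumin alone gave -0.79 ± 0.55 (limma adjusted p = 0.264), and all curcumin arrays lay below all untreated arrays. The other probe gave a scaled signal of 56.5, 14.3 and 12.1 in LPS+curcumin cells, 99.6, 44.6 and 60.1 in LPS cells, 14.2, 10.4 and 8.93 in curcumin cells and 23.7, 18.2 and 18.9 in untreated cells. It gave 1.68, -0.87 and -1.59 for LPS versus untreated, curcumin versus untreated and LPS+curcumin versus LPS, with none called, and the probes had the same sign in each of these comparisons.

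**Figure D3:**
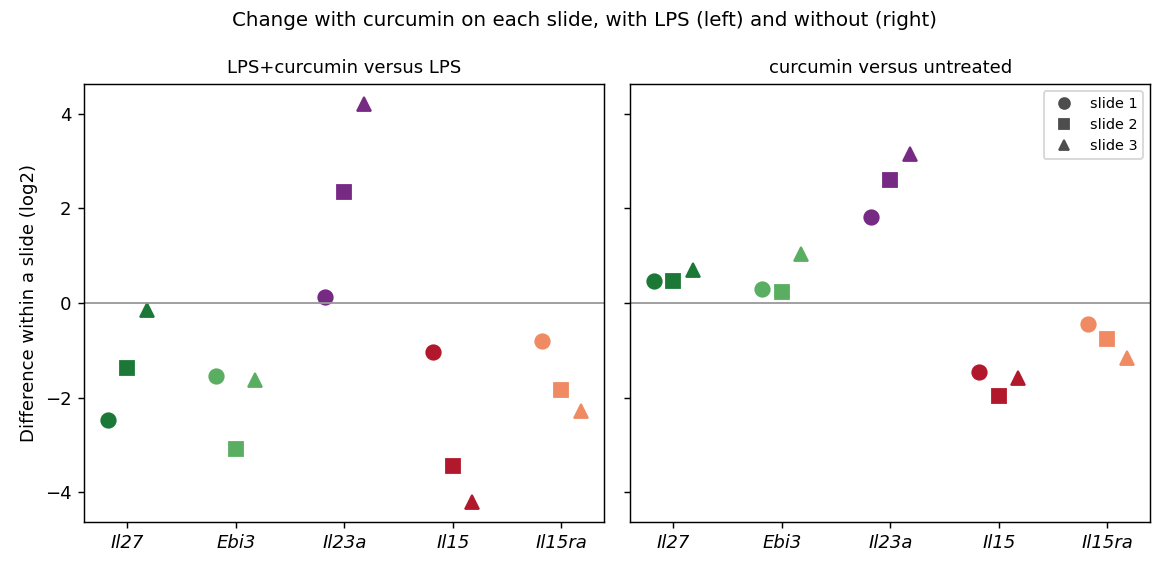
Difference in log2 scaled signal within each slide (circle slide 1, square slide 2, triangle slide 3) for LPS+curcumin minus LPS cells (left) and curcumin minus untreated cells (right). On the left, slide 1 gives the smallest difference for Il23a (0.13), Il15 (-1.04) and Il15ra (-0.81) and the largest drop for Il27 (-2.48), whereas on the right the slides lie closer together.

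The arrays of the groups also differed in overall signal, which bears on every level given above. The 75th percentile relative to the spike-in controls was -1.33, -2.23 and -2.58 on the log2 scale in LPS+curcumin cells, -1.44, -1.38 and -1.17 in LPS cells, -2.01, -2.14 and -2.32 in curcumin cells and -0.95, -0.94 and -1.26 in untreated cells. For curcumin versus untreated cells the median log2 fold change of all genes was accordingly 0.41 on the 75th percentile scaling, -0.01 after quantile normalization, -0.42 after median scaling and -0.69 after spike-in scaling. Of the genes called in that comparison, 4228 were higher and 1406 lower on the first. Quantile normalization gave 2239 higher and 2004 lower, median scaling 1580 higher and 4849 lower, and spike-in scaling 1396 higher and 8360 lower.

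For LPS+curcumin versus LPS cells the median was 0.32, 0.04, -0.41 and -0.40 on the 75th percentile, quantile, median and spike-in scalings, and for LPS versus untreated cells 0.01, -0.10, -0.14 and -0.27. The calls for LPS+curcumin versus LPS cells split into 2461 higher and 1158 lower on the 75th percentile. Quantile normalization gave 1258 higher and 1329 lower, median scaling 1001 higher and 3122 lower, and spike-in scaling 940 higher and 2290 lower.

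The signs of all 5 tested members in LPS versus untreated and in LPS+curcumin versus LPS cells were the same on these 4 scalings. Il27 and Ebi3 turned with the scaling in curcumin versus untreated cells, to -0.30 and -0.32 with median scaling and to -0.56 and -0.59 with spike-in scaling, uncalled throughout. Il15 in the same comparison was called on median (-2.51, adjusted p = 0.0498) and spike-in scaling (-2.77, adjusted p = 0.041). Il15ra in LPS+curcumin versus LPS cells was called on median scaling (-2.37, adjusted p = 0.0307). After normexp background correction, only Ebi3 in LPS versus untreated cells was still called among the members (2.46, adjusted p = 0.00735), with 197 genes called in that comparison in place of 1107. Fewer cells making a transcript and less of it per cell cannot be told apart in RNA from whole cultures.

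**Figure D4:**
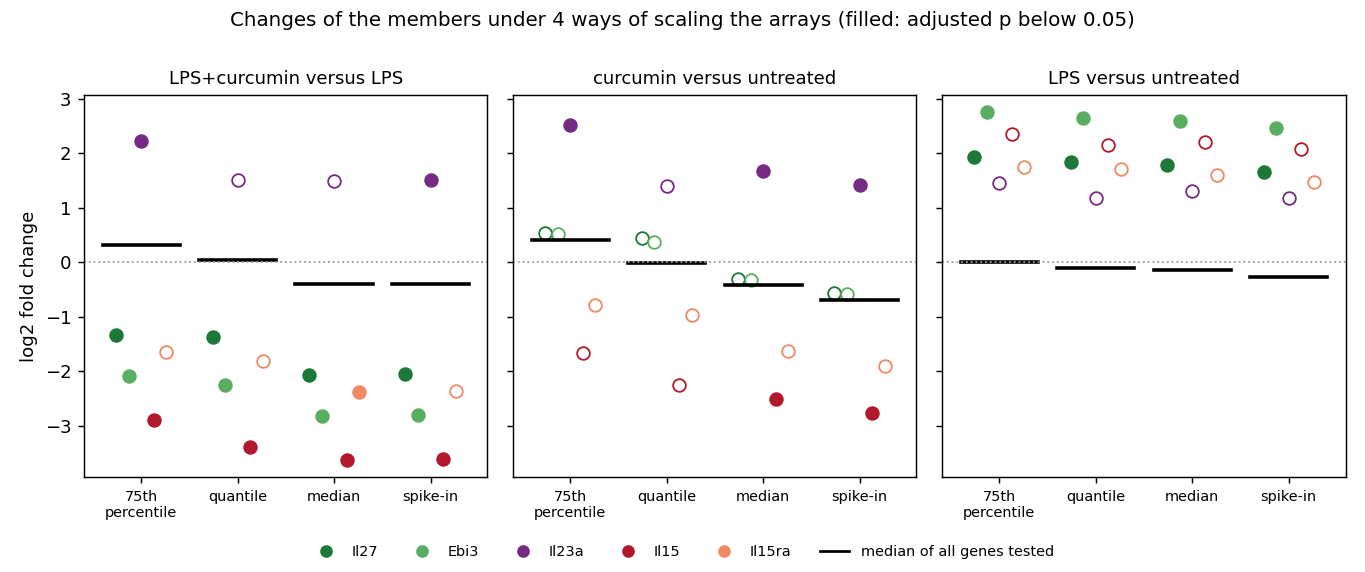
Log2 fold change of the 5 tested members (points, filled where the adjusted p is below 0.05) and the median of all genes tested (black lines) under 4 ways of scaling the arrays, for LPS+curcumin versus LPS, curcumin versus untreated and LPS versus untreated cells. The members keep their sign in the first and last panels, while Il27 and Ebi3 cross 0 with curcumin alone and the median of all genes drops to -0.69 on spike-in scaling. The points of Il23a against untreated cells are fitted values against a level below background.

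The receptors and signalling genes of these cytokines were described from lists. Of the IL-12 family receptors, Il12rb1, Il12rb2, Il27ra and Il6st were tested and Il23r was not, and none was called in any comparison on the 75th percentile scaling. The call depended on the scaling. With curcumin versus untreated cells 3 of the 4 were lower on median scaling, where 25.1% of all genes were lower. On spike-in scaling 4 were lower, where 43.3% of all genes were, with Il12rb1 at -1.95 (limma adjusted p = 0.00612). None was called on quantile normalization. With LPS+curcumin versus LPS cells 2 of the 4 were lower on median and on spike-in scaling, where 16.2% and 11.9% of all genes were. With LPS+curcumin versus untreated cells 2 were lower on median and 3 on spike-in scaling, where 29.5% and 40.8% of all genes were. With slide as a block, 1 was lower with curcumin and 1 with LPS+curcumin, each versus untreated cells, where 10.8% and 9.05% of all genes were. On the 75th percentile scaling their median log2 fold change was -0.18 with LPS, -0.30 with curcumin and -0.12 with LPS+curcumin versus LPS. Of the chains that interleukin 15 shares with interleukin 2, Il2rb, the beta chain, rose by 1.41 ± 0.22 with LPS versus untreated cells (limma adjusted p = 0.00292, and 1.14 with adjusted p = 0.0746 on spike-in scaling), whereas Il2rg was not called. Il2rb was also called higher with curcumin versus untreated cells (0.68 ± 0.22, limma adjusted p = 0.0438), in 4 of the 12 fits with 1 array left out, and was at -0.42 on spike-in scaling. Its probe was dim, with an untreated mean of -6.78 on the log2 scale relative to the 75th percentile.

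The Janus kinases and STAT proteins carry the signals of these receptors. With LPS versus untreated cells 4 of 8 tested genes rose and none fell, where 4.12% of all genes rose and 1.61% fell, and the median was 0.75 against 0.01 over all genes. The count was 3 on quantile, 1 on median and 1 on spike-in scaling, and 0 after normexp. In the same order 3.17%, 2.29%, 1.87% and 0.937% of all genes were called higher. Among the 4 that rose were Stat3 (1.43 ± 0.33, limma adjusted p = 0.0278), Jak2 (1.32 ± 0.31, adjusted p = 0.0299) and Tyk2 (1.41 ± 0.36, adjusted p = 0.0445), none of which was called on median or spike-in scaling. Of the 12 fits with 1 array left out, Stat3 was called in 7, Jak2 in 6 and Tyk2 in 3. With LPS+curcumin versus LPS cells none rose and 3 fell, where 5.99% of all genes fell, among them Stat3 (-1.36 ± 0.33, limma adjusted p = 0.02) and Tyk2 (-1.23 ± 0.36, adjusted p = 0.0389). With 1 array left out, Stat3 was called in 8 of the 12 fits and Tyk2 in 1, the fit without LPS+curcumin replicate 1. In that fit 5 of the 8 genes fell, where 55.1% of all genes were called, 40.5% higher and 14.6% lower. The count of lower genes was 2 on quantile, 6 on median and 5 on spike-in scaling, 5 with slide as a block and 0 after normexp. In the same order 6.88%, 16.2%, 11.9%, 8.73% and 0.373% of all genes were called lower. With curcumin versus untreated cells 1 of the 8 genes was called, where 29.2% of all genes were called, 21.9% higher and 7.28% lower. It was Stat5b, at -0.58 ± 0.19 (limma adjusted p = 0.0451), called in 3 of the 12 fits with 1 array left out.

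Among transcription factors known to act on genes of the family, 16 were tested. With LPS versus untreated cells 8 rose and none fell, at a median of 1.43, where 4.12% of all genes rose. These 8 include Batf, whose untreated level was below background, so its rise is not sized here. The count was 8 on quantile, 4 on median and 5 on spike-in scaling, and 5 after normexp. In the same order 3.17%, 2.29%, 1.87% and 0.937% of all genes were called higher. Irf7, an interferon regulatory factor, was 36.3-fold higher (log2 5.18 ± 0.47, limma adjusted p = 7.8e-05), and Nfkbiz, an atypical inhibitor protein that acts with NF-kB in the nucleus, was 27.4-fold higher (log2 4.77 ± 0.32, adjusted p = 1.09e-05). The NF-kB subunit genes Relb and Nfkb2 were higher by 2.26 ± 0.31 and 2.01 ± 0.34 (limma adjusted p = 0.00121 and 0.00422), of which Nfkb2 was not called on median or spike-in scaling.

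With LPS+curcumin versus LPS cells 5 of these 16 factors fell and none rose, at a median of -0.55, where 18.7% of all genes were called, 12.7% higher and 5.99% lower. The count of lower factors was 5 on quantile, 8 on median and 5 on spike-in scaling, 8 with slide as a block (and 2 higher) and 1 after normexp. In the same order 6.88%, 16.2%, 11.9%, 8.73% (and 20.1% higher) and 0.373% of all genes were called lower. The log2 fold change was -4.09 ± 0.47 for Irf7 (limma adjusted p = 0.000793), -1.93 ± 0.28 for Irf8 (adjusted p = 0.00218), -1.55 ± 0.32 for Nfkbiz (adjusted p = 0.0107) and -1.48 ± 0.41 for Spi1, a lineage factor of myeloid cells (adjusted p = 0.0325). With 1 array left out, Irf7 and Irf8 were called in all 12 fits, Nfkbiz in 11 and Spi1 in 7, and without LPS+curcumin replicate 1, 8 of 17 tested factors fell and 2 rose, in the fit where 14.6% of all genes fell and 40.5% rose. Irf8, which acts in myeloid cells, fell with curcumin alone as well (-1.74 ± 0.28 versus untreated cells, limma adjusted p = 0.00211), as did Irf5 (-1.16 ± 0.28, adjusted p = 0.0136), and both were called on all 4 scalings. Relb and Atf3 were called higher with curcumin versus untreated cells (1.35 ± 0.31 and 1.40 ± 0.35, limma adjusted p = 0.0115 and 0.0146), but not on median or spike-in scaling.

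Nfkbiz was 12.1-fold higher in LPS+curcumin cells than in curcumin cells (log2 3.59 ± 0.32, limma adjusted p = 0.000656), a comparison in which no member of the family was called. In the interaction 2 of the 16 factors were lower, where 0.709% of all genes were. Irf7 gave -4.59 ± 0.66 (limma adjusted p = 0.00804), a call not held on median or spike-in scaling. The other was Batf, whose fitted value rests on an untreated level below background and carries no weight here. Of 6 genes that these cytokines drive in T and natural killer cells, only Tbx21, which encodes T-bet, gave enough signal to be tested. It was 18.9-fold higher with curcumin than in untreated cells (log2 4.24 ± 0.83, limma adjusted p = 0.00512), a call made on all 4 scalings. In that comparison 21.9% of all genes were called higher and 7.28% lower. The Tbx21 probe was dim in untreated cells, with a mean scaled signal of -7.08 on the log2 scale. The lowest signals well above background on the untreated arrays were -7.34, -7.37 and -7.47 on that scale. The fold is therefore measured from a level close to background.

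For each tested member the genes with the most similar profile over the 12 arrays were named from 12193 genes with a symbol, by the root mean square difference of centred log2 values. Il23a was closest to Icam4 (0.45), Ppp1r15a (0.53) and Eid3 (0.56), against a root mean square of 1.53 for its own values. Il27 was closest to Ido2 (0.22), Daxx (0.31) and Elavl4 (0.35). Ebi3 was closest to Sp110 (0.32), Phf11d (0.32) and Lgals9 (0.33). Il15 was closest to Trim12a (0.40), Ikbke (0.41) and Cyria (0.43). Il15ra was closest to Snx20 (0.26), Plscr1 (0.29) and Ralgds (0.30). All of these values come from the same 12 arrays and are descriptions.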

How the data were processed

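Total RNA was amplified and Cy3-labelled for 12 Agilent arrays of 1 colour each, per the labels' protocols. The authors' scanner output gives linear intensities per spot, per the file headers. It came from Agilent Feature Extraction, whose version is 10.5.1.1 in the headers and 9.1 in the submitters' processing notes, and which had subtracted background from the processed signal used here. The intensities of the deposited matrix of values equalled it within 0.397%. Of 45018 spots per array, 1639 are controls, and 25097 of 41174 probes were named through RefSeq accessions in an annotation of GRCm38.p6, used for names only.

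The value analysed was log2 of processed signal minus the array's 75th percentile. Outlier spots were dropped, spots of a probe averaged, and the brightest probe stood for a gene. A probe entered where the 3 arrays of some group all had it well above background, and was tested with limma 3.58.1 in R 4.3.3 (data.table version 1.17.8, jsonlite 2.0.0), two-sided, over all 12 arrays, a procedure tested on simulated data. The 3 slides hold 1 array of each group, always at the same position, so group and position cannot be told apart. Same-numbered arrays, which share a slide, deviated together from their group means (mean correlation 0.32 over 18 pairs, 16 of them above 0.1). The mean of -0.15 over 36 other pairs is no separate contrast, since deviations from a group mean cancel within the group. The pairing comes from the slide in the file headers.

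The number of arrays limits the precision. The members, gene lists and motifs were chosen with earlier results of these data known. All members are named, and of each list up to 4 called genes per comparison with the smallest adjusted p and signal in both groups, except that 1 gene this rule takes is not reported here. Alternatives were normexp (offset 50, on the median signal, since the files have no mean signal column), quantile, median and spike-in scaling, no filter, the mean of a gene's probes, the deposited matrix, the slide as a block, and each array left out. The comparison of LPS+curcumin with untreated cells and the other Il15ra probe were added after seeing the data.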

Additional observations from a re-analysis of the deposited data

Results flagged for a closer look

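The response of Ebi3 to curcumin depended on whether LPS was present. Its change with curcumin was -2.09 in LPS-treated cells and 0.52 in cells without LPS, and the difference of -2.61 on the log2 scale passed the test of that difference (limma adjusted p = 0.0325). All 3 slides showed it in the same direction, and its dependence on single arrays and on the scaling is given with the results above.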

How the results depend on the processing

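Of 606 alternative values of the member fold changes, 528 kept their direction and side of the threshold, 37 lost a call, 13 gained one and 28 turned direction; the cause was not tested. All 28 that turned were uncalled by the main procedure. Counts of members are given out of those tested, and counts of genes over all tested, in this order: LPS against untreated cells, curcumin against untreated cells, the combination against LPS, the combination against curcumin, the interaction, and the combination against untreated cells. The counts as reported were 2, 1, 4, 0, 1 and 1 members and 1107, 5634, 3619, 41, 141 and 4729 genes.

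After normexp background correction 1, 0, 0, 0, 0 and 0 members and 197, 878, 89, 10, 2 and 88 genes were called. There Il15 and Il15ra turned to 0.22 and 0.034 for curcumin versus untreated, Il23a, Il27 and Ebi3 to -0.63, -0.32 and -0.23 for LPS+curcumin versus curcumin, and Il15 to 0.26 for LPS+curcumin versus untreated. On quantile normalization 0 members were called for curcumin versus untreated and for the interaction, with 72 genes for the interaction and 3089 (1262 higher, 1827 lower) for LPS+curcumin versus untreated, and Il23a turned to 0.11 in the interaction and Il15ra to -0.11 for LPS+curcumin versus untreated. On median scaling 2 members were called for curcumin versus untreated and 0 in the interaction, with 660, 24 and 72 genes for LPS versus untreated, LPS+curcumin versus curcumin and the interaction. For LPS+curcumin versus untreated, Il27, Ebi3 and Il15ra turned to -0.29, -0.22 and -0.77 there, and Il27 and Ebi3 to -0.30 and -0.32 for curcumin versus untreated.

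On spike-in scaling 2 members were called for curcumin versus untreated and 0 in the interaction, and the genes called numbered 653 for LPS versus untreated (361 higher, 292 lower, against 796 and 311 as reported), 9756 for curcumin versus untreated, 20 for LPS+curcumin versus curcumin, 55 for the interaction and 9089 for LPS+curcumin versus untreated (1209 higher, 7880 lower, against 3519 and 1210 as reported, and 1257 and 5690 on median scaling). There Il27 and Ebi3 turned to -0.56 and -0.59 for curcumin versus untreated, Il23a to 0.10 in the interaction, and Il27, Ebi3 and Il15ra to -0.40, -0.34 and -0.88 for LPS+curcumin versus untreated. Without the filter on dim probes 0 members were called in the interaction, and 2 members and 13438 genes for LPS+curcumin versus untreated, the second member being Il12a, a call that is void since no array had its signal well above background. With the replicate block (the slide, which pairs the arrays) 4 members were called for LPS versus untreated and 2 for curcumin versus untreated, and 5577, 68 and 229 genes for the combination against LPS, the combination against curcumin and the interaction; apart from the calls gained by Il15 and Il15ra it changed no call of a member.

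With each array left out in turn, the members called ranged over 2 to 4, 0 to 2, 1 to 5, 0 to 0, 0 to 2 and 1 to 2, and the genes over 577 to 1814, 2575 to 9692, 1085 to 10791, 14 to 205, 78 to 434 and 1935 to 10548. For LPS+curcumin versus curcumin, Il27 ranged from -0.13 (without LPS+curcumin replicate 3, and -0.01 without curcumin replicate 1) to 0.23, Ebi3 from -0.19 to 0.49 and Il15 from -0.023 to 1.81, the lowest of the last pair without LPS+curcumin replicate 1. Fitted values of Il23a in the interaction rest on an untreated level below background, so their signs carry no weight here or on the scalings above. With arrays left out they ranged from -0.98 to 0.46, the highest without LPS+curcumin replicate 1, and were 0.0073 and 0.03 without LPS replicate 1 and curcumin replicate 3. For LPS+curcumin versus untreated, Il15ra ranged from -0.63 (without LPS+curcumin replicate 1) to 0.55 and Il15 from -1.69 (without the same array) to 0.14 (without LPS+curcumin replicate 3). Background limits Il12a on all arrays and Il23a on the untreated arrays, and the 3 arrays per group limit the rest.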
